A study of Mus musculus with 6 samples.

Results

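The array used in this study probes, beside annotated transcripts, stretches of the mouse genome that carry no gene name and are identified by their coordinates (build mm9, per the file headers) and a strand letter, F or R. The results below concern the 2473 intervals whose coordinates occur with a single letter, out of 3543 probed by coordinates. Another 1067 are probed with both letters and 3 carry no letter. Of the single-letter intervals, 1251 carry F and 1222 carry R. What the letter refers to (the strand of the RNA or of the probe) is not stated in the files, so the letters are used only as names. The intervals were chosen by their names alone, not by any measured signal, and hold 6499 of the 55681 distinct probes that are not controls. An interval had a single probe in 428 cases, 2 probes in 322, 3 probes in 1595, and from 4 to 10 probes in 128.

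Much of a mammalian genome outside protein-coding genes is copied into RNA. Long noncoding RNAs are often spliced and polyadenylated like mRNAs, tend to be less abundant and more restricted to a cell type, and some are read from the strand opposite a gene, from promoters and enhancers, or from within introns. In mouse embryonic stem cells some take part in imprinting, such as Meg3 of the Dlk1-Dio3 region, while the function of most is not known. The intervals were not assigned to genes, exons or introns here, because the gene table at hand follows a later build than mm9, and no probe or interval sequence was used.

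The study compared J1 embryonic stem cells, a line of strain 129S4/SvJae, kept for 6 h with 1 µM SC1 (3 samples) or with its solvent DMSO (3 samples). SC1, also called pluripotin, is a small molecule described as an inhibitor of ERK1 and RasGAP, 2 proteins of the Ras-MAPK pathway. All 6 samples were grown on gelatin without feeder cells being named, in a medium with Knockout Serum Replacement and 1000 U/mL leukaemia inhibitory factor (LIF), so the comparison is of SC1 added to LIF, in 1 cell line. Each sample's total RNA was labelled with Cy3 and hybridised to 1 array. Nothing in the labels says that the 3 samples of a group came from separate cultures, so each p-value measures no more than the spread among these samples, part of which may be technical, and 6 arrays limit the precision.

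The stem cell label was checked against 12 embryonic stem cell markers, and all 12 were well above background on all 6 arrays. Of these 2 were higher and 6 lower with SC1, with Utf1 5.14-fold, Dppa4 2.87-fold and Tdgf1 2.62-fold lower. Lin28a, Sox2 and Zfp42 were 1.39, 1.21 and 1.19-fold lower, and Fgf4 and Sall4 1.85 and 1.19-fold higher. Pou5f1, Nanog, Esrrb and Dppa5a did not pass. The summed linear signal of the list, in units of the array's 75th percentile, was 727 to 751 with DMSO and 712 to 750 with SC1. Of 10 fibroblast (feeder cell) markers, 7 were above background on all arrays, while Lum, Postn and Twist2 were below it on every array. The fibroblast list moved with treatment (5 higher, 1 lower), although its summed linear signal, in units of the array's 75th percentile, was 2.41 to 2.57 with DMSO and 2.23 to 2.27 with SC1. For 5 primitive endoderm markers (3 higher, none lower) the sum was 135 to 141 with DMSO and 172 to 180 with SC1, nearly all of it from Sparc, while Sox17 (log2 fold change -0.05) and Dab2 (-0.06) did not pass. For 3 neural markers the sum was 5.35 to 5.48 with DMSO and 8.27 to 8.99 with SC1. Of these Tubb3 was higher (0.94), and Sox1 (-0.52) and Pax6 (-1.83) were lower. Neurog2 was below background on every array. Of 3 blood markers, Cd3e was above background on all 6 arrays and higher (0.23). Ptprc was above background on 3 arrays, and Hbb-b1 had no probe. The part of other cell types in the results below was not tested, and in bulk RNA fewer cells of a type and less RNA per cell cannot be told apart. All 5 response genes checked (Dusp6, Spry4, Egr1, Etv4 and Myc, known to depend on ERK signalling) were lower with SC1, with log2 fold changes of -4.99 for Dusp6, -3.53 for Egr1 and -4.55 for Myc. All arrays lay on 1 slide. The 3 DMSO arrays and SC1 replicate 1 shared a column of it, and SC1 replicates 2 and 3 lay in the other. The SC1 arrays were somewhat dimmer, with a 75th percentile of 443.3 to 493.3 against 532.2 to 539 for DMSO, and 63.2% to 65.1% of their probes well above background against 65.0% to 65.6%.

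Most single-letter intervals gave a measurable but weak signal. A probe was kept when well above background on every array of DMSO, of SC1 or of both, and an interval was tested when it had such a probe. This left 1680 of 2473 (67.9%). Of the 793 others, 485 had no probe above background on any array and 308 had one on some arrays. Intervals above background numbered 1767, 1784 and 1782 on the DMSO arrays and 1751, 1681 and 1701 on the SC1 arrays, so that SC1 replicates 2 and 3 had the fewest. By the probe used for the test, 1528 were above background on all 6 arrays, 19 on all DMSO arrays and no SC1 array, and 4 on all SC1 arrays and no DMSO array. The same split over all features is not given here, so 19 against 4 is not read as a trait of the intervals. The level of an interval below is the log2 of its brightest kept probe's signal minus the log2 of the array's 75th percentile. The median level was -2.92, against -0.52 over all 25439 genes and intervals tested.

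SC1 changed the signal of about as many single-letter intervals upward as downward. At an adjusted p under 0.05 (limma, Benjamini-Hochberg over all genes and intervals), 437 of 1680 (26.0%) differed, 214 higher and 223 lower with SC1. Over all genes and intervals the share was 38.3%, with 18.1% higher and 20.2% lower. The difference between these shares was not tested, and with spike-in scaling they were 18.5% (310 called) and 19.9%. Intervals probed with both letters gave 23.2% and named transcripts 40.5%. A change of at least 2-fold was called for 62 (3.69%; 28 higher, 34 lower), against 4.16% of all features (2.25% higher, 1.91% lower). The 3 SC1 values lay wholly above or below the 3 DMSO values for 620 intervals (36.9%), against 52.1% of all features. The log2 fold changes of the intervals ranged from -2.27 to 2.57 with a median of 0.02.

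Other settings moved the counts of the intervals and of all features, not always by a like amount or in the same direction. With quantile normalization 449 intervals were called (216 higher, 233 lower). Over all features the calls went from 9751 to 9708 there, with 5055 higher and 4653 lower. With the slide column as a block, which leaves SC1 replicate 1 against the DMSO arrays, 250 intervals were called (122 higher, 128 lower; 14.9% against 21.8% of all features). With the normexp background correction and 75th percentile scaling, 677 were called (40.3% against 47.4%), of which 515 were higher and 162 lower. Under that setting 76.1% of the intervals' calls and 57.9% of all calls were increases. Spike-in scaling left 124 increases and 186 decreases, and 248 of its 310 calls were among the 437.

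The single-letter intervals were dimmer than the array as a whole, so their calls were also counted within classes of signal. With all tested features divided into 4 classes of equal size by mean level (a division chosen after the data were seen), the dimmest class held 776 intervals, the next 622, then 213, and the brightest 69. In the dimmest class 18.7% of the intervals were called against 26.6% of all features, and in the next class 31.8% against 41.5%. The other classes gave 34.7% against 48.3% and, in the brightest, 29.0% against 37.0%. The median standard error was near that of all features in each class, 0.152 against 0.150 in the dimmest and 0.0519 against 0.0493 in the brightest. The share called was lower for the intervals in all 4 classes, and no test of that difference was run.

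**Figure D1:**
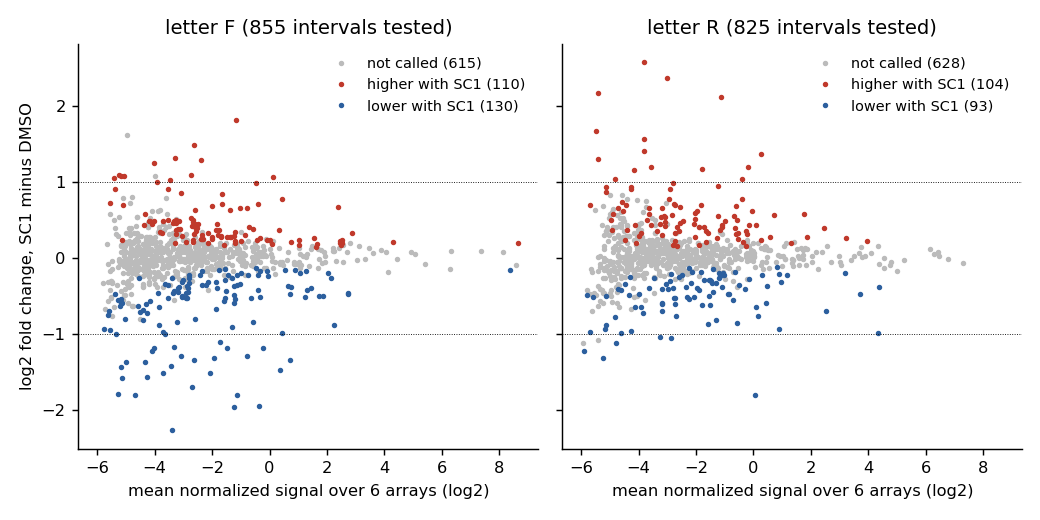
Log2 fold change (SC1 minus DMSO) of each tested single-letter interval against its mean level over the 6 arrays (log2, 0 is the array's 75th percentile), with the letters F and R apart. Called intervals are coloured by direction, and the calls of at least 2-fold among the F intervals are mostly decreases (28 of 41) while those among the R intervals are mostly increases (15 of 21).

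The largest increase was at chr14:62280837-62283960 (R, 3.12 kb). Its level was -4.96, -5.28 and -5.11 with DMSO and -2.53, -2.66 and -2.43 with SC1, a 5.94-fold rise (log2 2.57, SE 0.0997, adjusted p = 2.95e-05). The nearby chr14:62294849-62301165 (R, 6.32 kb) rose from -4.18, -4.15 and -4.24 to -1.78, -1.89 and -1.79, or 5.17-fold (log2 2.37, SE 0.0505, adjusted p = 6.37e-06). At both intervals the SC1 values were tight and far above every DMSO value, and every passing probe was called higher. The third, chr17:15368546-15377747 (R, 9.2 kb), went from -2.27, -2.2 and -2.12 to -0.13, -0.13 and 0.04, a 4.35-fold rise (SE 0.0671, adjusted p = 1.61e-05). The fourth, chr6:125407739-125408857 (F, 1.12 kb), went from -2.25, -2.15 and -1.79 to -0.23, -0.31 and -0.23, a 3.51-fold rise. DMSO replicate 3 stood above the other DMSO values.

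The other 6 of the 10 largest increases were 2.45 to 2.95-fold. A short one, chr2:172343878-172344212 (R, 335 bases), had a level of -0.48, -0.34 and -0.43 with DMSO and of 0.97, 0.91 and 0.94 with SC1, a 2.57-fold rise with little spread in either group. The longest of the 10, chr6:31170350-31287353 (F, 117 kb), rose from -3.47, -4.17 and -4.19 to -2.56, -2.66 and -2.67 (log2 1.31, SE 0.2, adjusted p = 0.0038), with DMSO replicate 1 nearer to the SC1 arrays. The rest were chr2:129416848-129417413 (R, 2.95-fold), chr10:78969674-78981039 (F, 2.79-fold), chr5:136129679-136148860 (R, 2.64-fold) and chr15:99765243-99783300 (F, 2.45-fold). Of the 10 increases 6 carried R.

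The largest decrease was at chr6:143053023-143069198 (F, 16.2 kb), whose level went from -2.19, -2.29 and -2.25 with DMSO to -4.32, -4.56 and -4.66 with SC1. It was 4.82-fold lower (log2 -2.27, SE 0.0934, adjusted p = 3.57e-05), on the 1 probe of its 2 that passed. The next, chr15:102100964-102104552 (F, 3.59 kb), went from -0.32, -0.19 and -0.29 to -2.4, -2.22 and -2.07, or 3.89-fold lower. At chr1:138592780-138622719 (F, 29.9 kb) the levels of -0.29, -0.22 and -0.21 became -2.03, -2.09 and -2.01, 3.51-fold lower (SE 0.0443, adjusted p = 9.58e-06). The last 2 had DMSO signals near the array's 75th percentile, where the 2 largest increases started far below it. An interval of 6.48 kb on chromosome 18 (R) was brighter still and fell 3.48-fold, from 1.02, 0.95 and 0.86 to -0.83, -0.87 and -0.86.

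Another 3 of the 10 largest decreases lay together on chromosome 12 and are described there with a neighbour. The remaining ones were chr19:53535104-53536627 (F, 3.25-fold, a single probe), chr17:29571806-29603008 (F, 2.85-fold) and chr2:150091945-150119782 (F, 2.68-fold). Of the 10 decreases 9 carried F. All 20 of these intervals stayed called, in the same direction, under all 20 alternative settings, with adjusted p at most 0.0346. The 20 were chosen as large called changes on the same arrays that the alternatives refit, so they gain no independent evidence from this. Their fold changes were smaller under normexp, which with 75th percentile scaling moved the log2 fold change of the first increase from 2.57 to 1.15 and of the first decrease from -2.27 to -0.82.

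**Figure D2:**
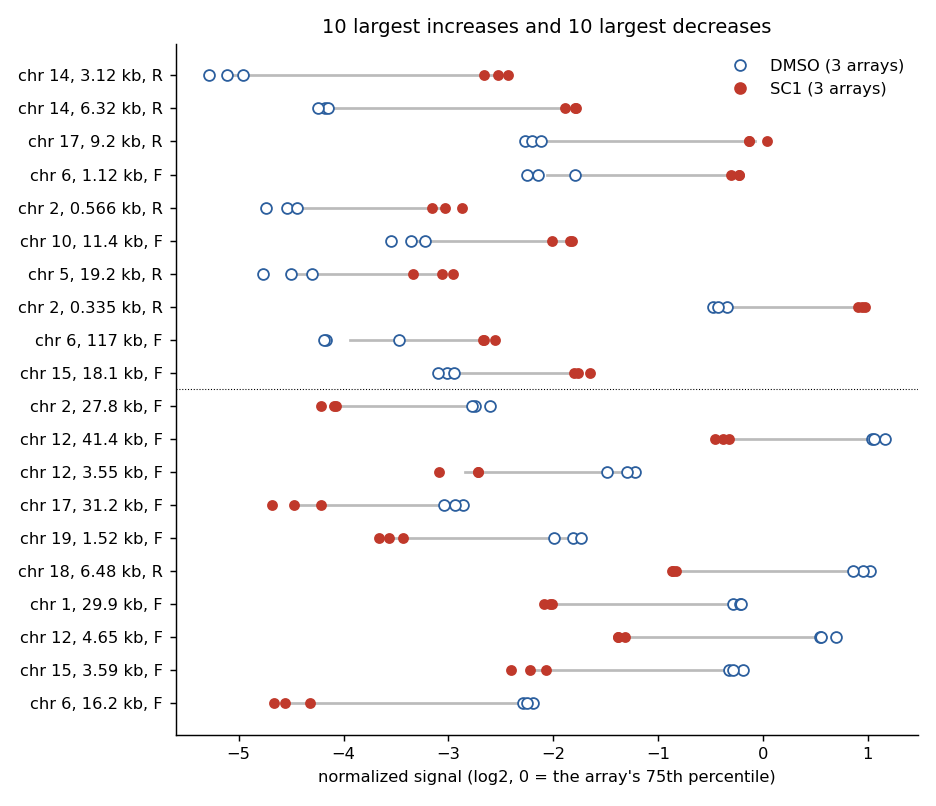
Level on each of the 6 arrays (log2 signal minus the array's 75th percentile) of the 10 largest increases and the 10 largest decreases. They were taken from called single-letter intervals above background on all 6 arrays. Each has 1 line, with DMSO as open and SC1 as filled circles and a line between the group means. Non-overlap of the groups was a condition of the choice, and DMSO levels reach 1.16 among the decreases and -0.34 among the increases.

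A few called intervals were measured on one side only, with none of their probes above background on any array of the other group: 2 on the SC1 side and 10 on the DMSO side. Such a change has a lower bound, taken from the floor of probes above background, in place of a fold. These intervals passed the filter only through the group where they were higher, so their p-values and calls are no separate support. The matching counts over all features are not given here, so 10 against 2 is not read as a trait of the intervals. SC1 replicates 2 and 3 had 63.2% and 63.5% of probes above background, against 65.0% to 65.6% with DMSO. The interval chr5:52186651-52187148 (R, 498 bases) was above background on the 3 SC1 arrays and on no DMSO array. Its level was -3.86, -4.46 and -4.64 with SC1 and -6.05, -7.02 and -6.41 with DMSO, at least 2.98-fold higher (adjusted p = 0.00281). At chr13:108259901-108272775 (F) the rise was at least 1.81-fold (adjusted p = 0.00206). Both were called in 18 of 19 alternatives. Under normexp with quantile normalization their log2 fold changes were 0.12 and 0.13, and neither was called. Of the 10 seen on the DMSO arrays only, the 5 with the largest log2 fold changes are given. The first was a 99.3 kb interval on chromosome 18 (F), at least 2.55-fold lower (adjusted p = 0.00325). The next 4 were at least 1.37 to 1.58-fold lower: chr14:99734507-99734889, chr2:150080526-150082950, chr4:129488462-129516410 and chr4:3169583-3180017. The first and chr4:3169583-3180017 were called in 18 of 19 alternatives, chr14:99734507-99734889 in 15, chr2:150080526-150082950 in 13 and chr4:129488462-129516410 in 12. Under normexp with 75th percentile scaling none of these 5 decreases was called. Their log2 fold changes there ran from -0.13 for the chromosome 18 interval to 0.05 for chr2:150080526-150082950.

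Where neighbouring intervals were both called, they mostly went the same way. Among pairs of tested intervals that overlapped or lay under 50 kb apart (894 pairs), both were called in 89 (9.96%). They went in the same direction in 81 and in opposite directions in 8. In 312 pairs only 1 of the intervals was called. The matching counts over all features are not given here. Pairs of the same letter had 60 same-direction and 7 opposite, and pairs of different letters 21 and 1. Where 2 intervals of different letters overlapped, all 8 pairs with both called went the same way. Neighbours can share a transcript, so they are not independent. Grouping the intervals this way gave 1116 clusters, 361 with a call, and 274 (24.6%) called when 1 interval was kept per cluster. Across the 894 pairs the log2 fold changes had Pearson r = 0.39 and Spearman rho = 0.3, over points that share intervals.

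A run with large decreases lay on chromosome 12, at chr12:110842149-110913909 (71.8 kb, 4 F intervals), and like the other runs it was chosen after the values were seen. All 4 fell. The second, chr12:110842154-110883594 (41.4 kb), went from 1.04, 1.06 and 1.16 with DMSO to -0.38, -0.32 and -0.46 with SC1 (2.79-fold lower). The third, chr12:110894095-110899517, went from 1.31, 1.36 and 1.44 to -0.1, 0.21 and -0.02 (2.53-fold lower), and the fourth, chr12:110909258-110913909, from 0.7, 0.54 and 0.55 to -1.32, -1.38 and -1.38 (3.86-fold lower). The first, chr12:110842149-110845695, had the lowest level and was 2.85-fold lower. Beyond a gap of over 50 kb, chr12:110973190-110987668 (14.5 kb) was 1.99-fold lower, while chr12:110967974-110969051 had a log2 fold change of -0.13 (adjusted p = 0.462), so that 5 of 6 tested F intervals within 146 kb were lower. Of 6 tested intervals probed with both letters in these 146 kb, counted by letter, 4 were lower and 1 higher. On the same arrays Meg3, a maternally expressed noncoding RNA of the Dlk1-Dio3 imprinted region, had a log2 fold change of -1.67 (SE 0.0393) and Mirg, another RNA of that region, of -1.93 (SE 0.125). The intervals were not assigned to either gene.

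On chromosome 14 the 2 largest increases sat in a run of 46.8 kb, chr14:62254361-62301165, with 4 tested intervals, of which 3 R intervals were higher. The longest, chr14:62254361-62301162, overlaps all the others and rose by less (log2 0.49, SE 0.0707, adjusted p = 0.0032). The F interval there, chr14:62267786-62285335, had a log2 fold change of 0.78 with adjusted p = 0.0786, and its DMSO levels of -5.37, -6.16 and -4.99 were widely spread. At chr15:62007025-62091770 (84.7 kb) all 3 F intervals were lower, with log2 fold changes of -1.58, -0.84 and -0.91. The middle one, chr15:62046023-62082530 (36.5 kb), had levels of -0.21, -0.09 and -0.22 with DMSO and -1.07, -0.96 and -1.02 with SC1, with no overlap. The first was well above background on a single SC1 array, so its value there is less certain. At chr5:22887983-22939658 (51.7 kb) 4 overlapping R intervals were all higher (log2 0.62, 0.51, 0.55 and 0.56). The brightest of them, chr5:22928221-22939127, went from 0.46, 0.42 and 0.45 to 0.98, 1.01 and 1.01 (adjusted p = 0.00018), with little spread in either group. At chr6:31078802-31287353 (209 kb) 3 intervals, 2 R and 1 F, were higher by 0.94, 0.98 and 1.31 on the log2 scale. The short first one, chr6:31078802-31079644, went from -1.69, -1.63 and -1.79 to -0.81, -0.75 and -0.74. At chr9:39986829-40033539 (46.7 kb) 3 R intervals were higher by 0.65, 0.69 and 0.29. Other runs with at least 3 calls in 1 direction were less uniform. Of their tested intervals, 4 of 7 were higher at chr2:174787150-174997818 and 3 of 4 lower at chr3:85781157-85889300. Lower were 3 of 6 at each of chr3:95443225-95503399, chr8:71890408-72113375 and chr14:99728359-99753569. At chrX:98661132-98718445, 3 of 8 were lower and 1 higher.

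**Figure D3:**
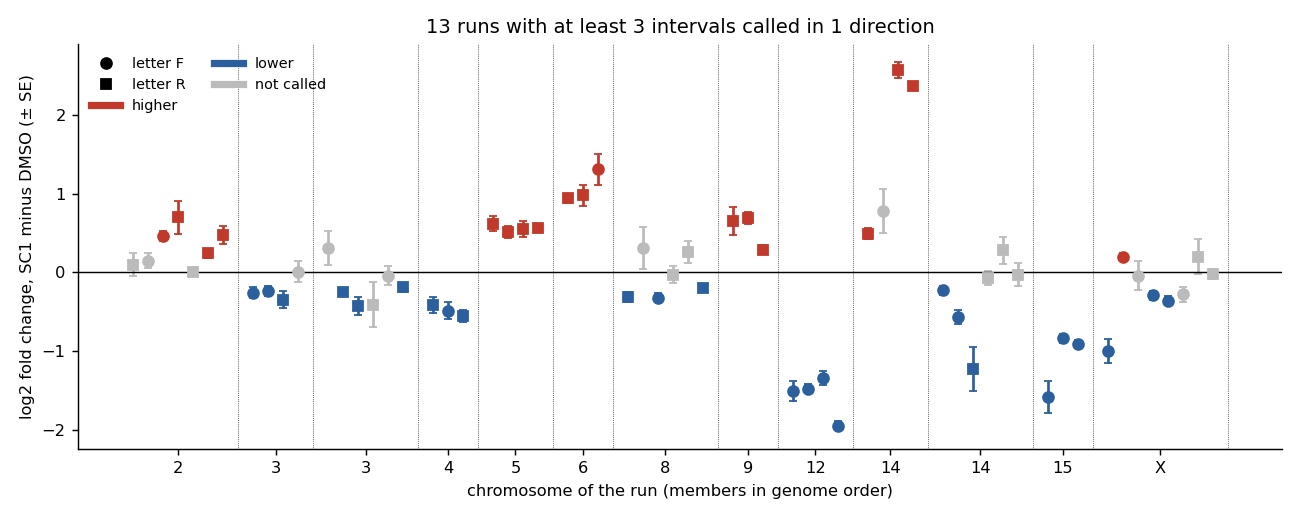
Log2 fold change (SC1 minus DMSO, ± SE) of the tested intervals in the 13 clusters of neighbouring intervals with at least 3 calls in 1 direction, ordered by chromosome and position. Circles carry F, squares R, and grey points were not called, so that the chromosome 12 run (4 decreases, log2 -1.95 to -1.34), the chromosome 14 run (up to 2.57) and the chromosome 5 run (4 increases near 0.56) stand out.

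On chromosome 10, 3 F intervals within chr10:66574421-66644032 (69.6 kb) fell by 1.37, 1.29 and 1.17 on the log2 scale. The middle one, chr10:66627543-66629331, went from 0, -0.29 and -0.12 to -1.53, -1.33 and -1.42 (adjusted p = 0.000217). The first lies more than 50 kb from the next and so counts in another cluster. On chromosome 4 a longer stretch, chr4:145450600-147183905 (1730 kb), held 12 tested intervals, of which 8 were lower and 1, chr4:145593253-145594254, higher. The intervals probed with both letters there, counted by letter, numbered 14, with 8 lower and none higher. Its 3 adjacent intervals at chr4:146124275-146175425 fell by 0.41, 0.49 and 0.56 on the log2 scale.

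Different probes of an interval mostly went the same way. Of 898 tested intervals with at least 2 passing probes, 420 had a called probe. Exactly 1 was called in 197 and several in 223, and of those 219 had all called probes in the same direction. The 4 exceptions were chr17:21653676-21667959, chr5:149765314-149771786, chr6:13801450-13853450 and chr9:27155685-27156100. In the widest of them, chr6:13801450-13853450 (52001 bases), single probes ranged from -1.01 to 0.84. For 267 of 296 called intervals with a second probe, that probe had the same sign. Testing each probe gave 899 calls among 3166 (28.4%), against 36.3% of all probes. An interval with 1 probe was called in 30.6%, with 2 in 28.4%, with 3 in 24.6% and with more in 25.2%.

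Calls of at least 2-fold were mostly decreases among F intervals and mostly increases among R intervals. Among F intervals 240 of 855 (28.1%) were called, 110 higher and 130 lower, and among R intervals 197 of 825 (23.9%), 104 higher and 93 lower. Calls of at least 2-fold made up 4.8% of F and 2.55% of R intervals, against 4.16% of all features (2.25% higher, 1.91% lower). The letters differed mainly in these decreases and little in the increases. There F had 13 increases and 28 decreases, and R had 15 increases and 6 decreases. The same order held with 1 interval per cluster and letter (F 13 and 24, R 14 and 6) and in 20 of 20 alternatives. These refit the same arrays and mostly the same intervals, so they are no independent evidence. Under normexp with 75th percentile scaling the counts were small (F 1 and 6, R 5 and 2). Under spike-in scaling the order was narrowest for R, at 13 increases and 11 decreases. Intervals probed with both letters did not show it in that form: F had 8 increases and 11 decreases, and R 10 increases and 22 decreases. No test between the letters was run.

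The share called was lowest among the shortest intervals and similar in the other length classes. The intervals were 62 to 7128487 bases long, with a median of 2176, against 17901 for those probed with both letters. In 5 classes of about equal number, the share tested was 58.7% for 62 to 506 bases, 67.1% for 507 to 1029, 68.7% for 1035 to 4324, 73.3% for 4347 to 18645 and 71.9% for longer ones. The shares called were 19.2%, 26.9%, 29.7%, 27.6% and 25.6% in that order. The counts of higher and lower calls, from the shortest class to the longest, were 25 and 31, 46 and 43, 44 and 57, 55 and 45, and 44 and 47. Changes of at least 2-fold were most frequent in the middle class (6.18%) and rarest in the class of 507 to 1029 bases (1.21%). The median level was -3.18 in the shortest class and -3.24 in the next. Within the dimmest signal class the shares were 15.2%, 18.1%, 24.5%, 15.5% and 20.1%.

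With fixed limits of length the shares were 26.5% up to 10 kb, 25.8% from 10 to 20 kb, 23.1% from 20 to 40 kb, 23.2% from 40 to 80 kb and 29.3% above 80 kb, where 75 were tested. The longest interval tested, chr3:34003359-34537330 (F, 534 kb), did not pass (log2 0.34, SE 0.226, adjusted p = 0.297). Its level was -2.6, -2.43 and -2.52 with DMSO and -2.54, -1.65 and -2.35 with SC1, with SC1 replicate 2 apart. The shortest, chr5:113771346-113771431 (F, 86 bases), gave a log2 fold change of -0.02 (SE 0.363) on 1 probe. Intervals that overlap another probed interval numbered 1031 of those tested, and 30.1% of them were called against 19.6% of the 649 that do not, with median levels of -2.71 and -3.32.

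**Figure D4:**
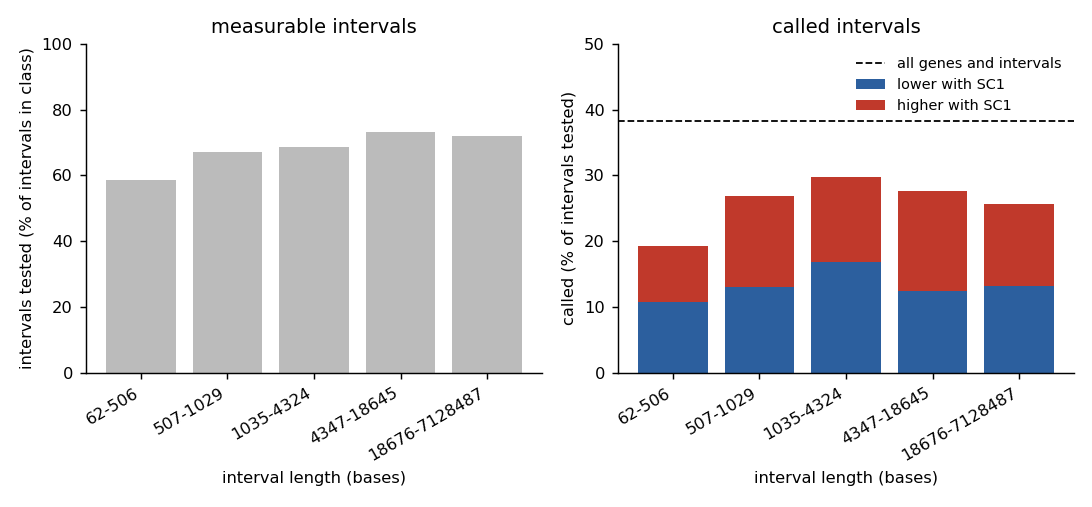
Shares of single-letter intervals tested and called, by 5 length classes of about equal number (bases), with calls split by direction and the dashed line at the 38.3% called over all genes and intervals. The share called is lowest in the shortest class (19.2%) and between 25.6% and 29.7% in the others.

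The balance of directions was uneven on several chromosomes, without a test between them. Over all genes and intervals 18.1% were higher and 20.2% lower. That share was not taken by chromosome, so whether an uneven balance is particular to the single-letter intervals was not tested. The share called ran from 14.8% on chromosome 11 (9 of 61 tested) to 33.8% on chromosome 10 (25 of 74). On chromosome 4, 5 intervals were higher and 23 lower, on chromosome 15, 4 and 14, and on chromosome 3, 8 and 18. On chromosome 5 the balance was the other way, with 22 higher and 9 lower, and 6 of these changes were at least 2-fold. None of the chromosome 4 calls reached 2-fold. In counts of clusters these were 5 against 20, 4 against 12, 7 against 13, and 17 against 8. Of the 23 decreases on chromosome 4, 8 lay in the 1730 kb stretch described above, which its gaps split into several clusters. With the slide column as a block there were 7 higher and 17 lower on chromosome 4, 2 and 10 on chromosome 15, 6 and 6 on chromosome 3, and 14 and 5 on chromosome 5. Under normexp with 75th percentile scaling increases outnumbered decreases on all 20 chromosomes, so the balance on chromosomes 4, 15 and 3 turned (26 higher and 19 lower, 19 and 10, 17 and 8) and that on chromosome 5 (38 and 6) says nothing about stability. The X chromosome had 16 of 83 called, 8 in each direction.

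**Figure D5:**
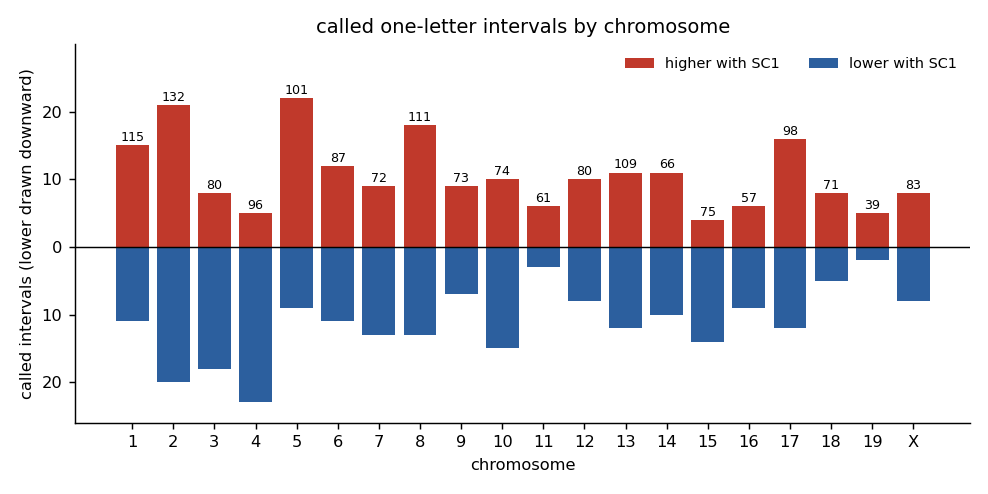
Single-letter intervals called higher (drawn upward) and lower (drawn downward) with SC1 on each chromosome, with the number tested above each bar. Chromosome 4 (5 higher, 23 lower) and chromosome 15 (4 higher, 14 lower) lean to decreases and chromosome 5 (22 higher, 9 lower) to increases. Of the chromosome 4 decreases 8 lie in 1 stretch of 1730 kb.

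The brightest intervals changed little, although signals of different probes cannot be read as relative amounts of RNA. At chr17:39983902-39985688 (F) the levels were 8.56, 8.6 and 8.46 with DMSO and 8.68, 8.73 and 8.79 with SC1 (log2 0.19, adjusted p = 0.0361), a call kept in 10 of 20 alternatives. At chr6:116123643-116124550 (F) they were 8.42, 8.48 and 8.44 against 8.29, 8.23 and 8.33 (log2 -0.16, adjusted p = 0.0322), kept in 11 of 20. Neither chr17:48068261-48087905 (log2 -0.1, adjusted p = 0.25) nor chr17:39982023-39983277 (0.07, adjusted p = 0.486) passed.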

How the data were processed

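Each of the 6 samples was run on a one-colour array of its own, per the labels' protocols, and the submitters' processing notes name Agilent Feature Extraction 10.7. The deposited scanner files hold an intensity per spot (a processed signal corrected for background, and raw median signals) with flags for spots well above background or outlying, per the file headers. A matrix of log2 values that the authors deposited served only as an alternative; its normalization is not given in the sources used here.

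Spots marked as outliers and control spots were left out. The log2 processed signal was averaged per probe, and the array's 75th percentile over probes was subtracted. Each gene, or interval and letter, was given by its probe with the highest mean. SC1 and DMSO were compared with limma 3.58.1 in R 4.3.3 (lmFit, eBayes, two-sided, Benjamini-Hochberg, threshold 0.05) over all 25439 features tested. In simulated data of that size, 45 of 50 features changed 2-fold and 13 of 50 changed 1.25-fold were recovered, and 14 unchanged features were called. Far fewer features were changed there than were called in the data. The spread was that of all features (median standard error 0.064, against 0.0956 for the single-letter intervals), so recovery among the intervals was not tested. Named intervals are the 10 largest increases and decreases above background on all 6 arrays without overlap of the groups, up to 5 seen in a single group in each direction, the longest, the shortest and the 4 brightest. The intervals, rules and marker lists were chosen with earlier results of these data known. Same-numbered replicates were checked for pairing. Alternatives covered scaling, background, filters, probes, blocks and each replicate left out. Signal classes and the counts without chromosome 12 were added after seeing the data.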

Additional observations from a re-analysis of the deposited data

How the results depend on the processing

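Of the 652 refits of named intervals, 611 kept their side of the threshold without a called change turning. In 11 of these the sign differed, all in 3 intervals that were not called. Against 437 calls (214 higher, 223 lower), normexp with 75th percentile scaling gave 677 (515 higher, 162 lower) and the slide column as a block 250 (122, 128), of which 224 were shared. Spike-in scaling gave 310, 124 of them higher. Each probe counted gave 899 (432, 467). Stricter rules gave 62 at 2-fold (28, 34), 234 at adjusted p under 0.01 (117, 117), 127 without overlapping intervals (58, 69) and 199 with at least 3 passing probes (96, 103). Without chromosome 12, an alternative chosen after seeing the data, 419 were called. Leaving out 1 replicate gave 341 to 382 (174 to 182 higher, 163 to 206 lower). With 1 interval per cluster, the share called was 11.5% on chromosome 19 and 12.2% on chromosome X. Opposite probes fell to 2 intervals above background on all arrays, and opposite neighbour pairs rose from 8 to 15 with quantile normalization and to 15 with the mean of the probes. The log2 fold change of chr2:150080526-150082950 became 0.05 under normexp with 75th percentile scaling. The causes were not tested, and some of these settings counted smaller sets of intervals. Same-numbered samples did not deviate together (correlations -0.0133, -0.0365 and -0.0154), so the numbers give no pairing, and the replicate block gave 384 calls (197 higher, 187 lower). Weak signal limits the dimmest intervals, where the median standard error was 0.152.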
